A study of Drosophila melanogaster with 12 samples.

Results

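HDAC3, His4r and kis are 3 genes of Drosophila melanogaster whose products act on chromatin, and they were read here as 3 of the 16637 transcript rows of an array table, FBtr0078767, FBtr0082962 and FBtr0078144. The rows were chosen by identifier, because the protein depleted in the study, CP190, is itself bound to chromatin. Kc cells, a line derived from fly embryos in which the moulting hormone 20-hydroxyecdysone (20HE) acts, were given RNAi against CP190 or, as control, against beta-galactosidase. Each RNAi arm was collected without hormone and after 3 or 48 h of 20HE. The 6 groups are thus control RNAi at 0, 3 and 48 h and CP190 RNAi at 0, 3 and 48 h, all of them in Kc cells grown in serum-free medium, with 2 biological replicates in each and 12 arrays in all. The labels do not say that replicates came from separate cultures, so the tests measure the spread between these samples. No group was labelled as kept for 3 or 48 h without hormone. An effect of 20HE thus cannot be told apart here from one of time in culture. All values come from 1 cell line, and the extraction protocol names a second line, Mbn2, although all 12 titles name Kc. Of 7 markers listed for Kc cells, only LanA, a laminin subunit gene, had a row with a gene name, and its intensity was 98.9 to 121 times that of a random-sequence control probe set on the same array. No row was paired with Cp190, so the depletion of its RNA was not checked here.

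Chromatin is DNA wrapped around histone proteins, and genes are opened or closed by chemical marks on histones and by enzymes that move them. HDAC3 encodes a histone deacetylase, an enzyme that removes acetyl groups from histones and is known as the catalytic part of a corepressor complex that nuclear receptors can recruit. His4r encodes a histone H4 made outside the replication-dependent histone gene cluster from a polyadenylated transcript, with the same protein as the clustered copies. The gene kis (kismet) encodes large remodelling proteins of the CHD family, belongs to the trithorax group and is known to support transcription by RNA polymerase II. CP190 is a zinc finger protein found at insulators, the DNA elements that separate regulatory domains. The receptor for 20HE is a nuclear receptor that switches target genes on and off. By RefSeq's gene table of the Release 6 assembly, HDAC3 has 1 transcript, His4r has 4 and kis has 6, and the array row named for each stands for a transcript identifier, so other isoforms of kis and His4r were not read separately. HDAC3 and His4r lie on chromosome arm 3R and kis on 2L.

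The 3 genes were well measured on every array. Intensities on the linear scale were 11.4 to 17.3 times the random-sequence control for HDAC3, 59.6 to 77.2 times for His4r and 36.3 to 45.3 times for kis, with that control at 413 to 425. The brightest transcript of an array read 61018 to 65523, and the highest value of His4r was 31957. Over all transcripts, replicate arrays correlated by 0.994 to 0.997, and array medians lay between 1136 and 1227. Intensities of different rows are not set against each other, since probes differ in how strongly they bind.

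Averaged over the 3 times, HDAC3 was lower after CP190 RNAi, and averaged over both arms it was lower at 48 h of 20HE than without hormone. At 0 h its intensity was 6473 and 7266 in control RNAi cells (replicates 1 and 2) and 5317 and 5966 in CP190 RNAi cells. At 3 h it was 6079 and 6828 in control and 5303 and 5858 in CP190 RNAi cells. At 48 h it was 5622 and 5863 in control and 4704 and 5406 in CP190 RNAi cells. At each time both CP190 values lay below both control values, and in every group replicate 1 lay below replicate 2. Of all transcripts, 10.3% had replicate 1 below replicate 2 in every group. The share with both CP190 values below both control values at each time was not counted. Group means fell in the order control 0 h (6869 ± 561, SD, n = 2), control 3 h (6453 ± 530), control 48 h (5742 ± 170.2), CP190 0 h (5641 ± 459), CP190 3 h (5580 ± 392) and CP190 48 h (5055 ± 496). Of neighbours in this order, only control 3 h and control 48 h had replicates that did not overlap.

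**Figure D1:**
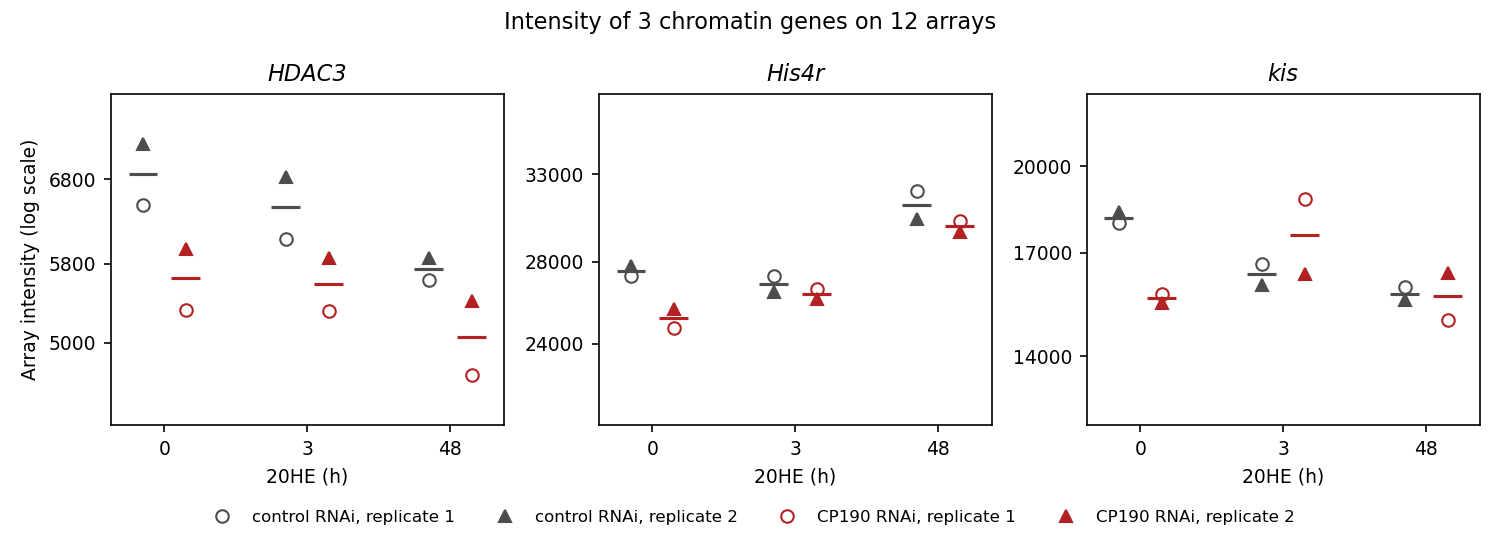
Intensity (log scale) of HDAC3, His4r and kis on each of the 12 arrays against hours of 20HE, with control RNAi in grey and CP190 RNAi in red, open circles for replicate 1, filled triangles for replicate 2 and bars for the arithmetic mean of the 2. HDAC3 is lower in CP190 RNAi cells at all 3 times, His4r is higher at 48 h in both arms, and kis at 3 h of CP190 RNAi has its widest gap between replicates, 18812 and 16339.

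Averaged over the 3 times, the HDAC3 level in CP190 RNAi cells was below that in control cells by a log2 difference of -0.23 ± 0.061 (SE; 14.5% lower, limma adjusted p = 0.0228). The 95% interval ran from -0.36 to -0.09. Past the threshold of 0.05 in this comparison were 3307 of 16637 transcripts, 19.9%, with 9.86% of all transcripts lower (1641 transcripts, and 2198 after centring arrays), so a call here is common. A fall in such bulk RNA cannot tell less HDAC3 RNA per cell from fewer cells that express it. With the replicate number as a block in the model, which takes out the offset between replicate 1 and 2, the adjusted p was 0.00102, and 29.5% of all transcripts were called. Without the block, the call was lost when any CP190 replicate 1 or any control replicate 2 was left out (adjusted p of 0.0605 to 0.0732), and it was also lost when the random control was subtracted (0.0685). In fits with the block, which were added after seeing the data, the call held without each of the 12 arrays in turn (adjusted p of 0.00141 to 0.00542).

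Within a replicate number, the log2 difference of HDAC3 between CP190 and control cells was negative in 6 of 6 pairs. The pairs gave -0.28 and -0.28 at 0 h, -0.20 and -0.22 at 3 h, and -0.26 and -0.12 at 48 h, for replicates 1 and 2. Of all transcripts, 13.6% were lower in CP190 cells in all 6 pairs. At single times the difference was -0.28 ± 0.11 at 0 h, -0.21 ± 0.11 at 3 h and -0.19 ± 0.11 at 48 h, and none passed in limma (adjusted p = 0.148, 0.328 and 0.46), where 7.34%, 6.21% and 5.19% of all transcripts did. Leaving out 1 array moved these values between -0.37 and -0.20 at 0 h, between -0.29 and -0.13 at 3 h and between -0.29 and -0.09 at 48 h. With the replicate block the 0 h difference passed (adjusted p = 0.0173), and those at 3 and 48 h did not (0.0799 and 0.139), where 15.7%, 12.6% and 9.94% of all transcripts were called. The blocked call at 0 h was lost without 3 of the 12 arrays, CP190 0 h replicate 1 (adjusted p = 0.111) or 2 (0.089) and control 0 h replicate 2 (0.0676).

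Of the hormone comparisons, only that at 48 h was called for HDAC3. At 3 h against 0 h its log2 change was -0.09 ± 0.11 in control and -0.02 ± 0.11 in CP190 cells, neither past the threshold (limma adjusted p = 0.9995 and 0.998), with 1.31% and 0.703% of all transcripts called. At 48 h against 0 h it was -0.26 ± 0.11 in control (adjusted p = 0.0976) and -0.16 ± 0.11 in CP190 cells (adjusted p = 0.324), with 28.3% and 26.5% called. Over both arms together HDAC3 fell at 48 h by 0.21 on the log2 scale (SE 0.075, 95% interval -0.37 to -0.04, adjusted p = 0.0461), in a comparison that called 38.9% of all transcripts. The 4 pairs of a 48 h and a 0 h array with the same RNAi and replicate number all went down, from -0.31 to -0.14, as they did for 30.5% of all transcripts. With the replicate block the 48 h change passed in control cells (adjusted p = 0.0128) and over both arms (0.00411), where 36.0% and 45.6% of all transcripts were called, and it did not in CP190 cells (0.113). The blocked call in control cells was lost without replicate 2 of control at 0 h (0.0506) or at 48 h (0.144).

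That 48 h call over both arms was close to the threshold without the block. It was lost when only the arrays compared were fitted (adjusted p = 0.0551), when the random control was subtracted (0.0931), and on leaving out either control array of 48 h, either CP190 array of 3 h, replicate 2 of either arm at 0 h, or replicate 1 of CP190 at 48 h (0.0529 to 0.168). In the blocked fits without 1 array it passed in 12 of 12 (0.00579 to 0.0273).

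The fall of HDAC3 at 48 h was not shown to depend on CP190. The response in CP190 cells minus that in control cells was 0.10 on the log2 scale (95% interval -0.23 to 0.43, adjusted p = 0.942), and at 3 h it was 0.08 (-0.25 to 0.40, adjusted p = 0.9999). These intervals still hold differences as large as the fall itself.

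His4r rose late in hormone treatment, averaged over both RNAi arms. At 0 h its intensity was 27241 and 27779 in control and 24740 and 25641 in CP190 RNAi cells, and at 3 h it was 27238 and 26441 in control and 26601 and 26084 in CP190 RNAi cells. At 48 h it was 31957 and 30340 in control and 30218 and 29630 in CP190 RNAi cells. All 4 arrays at 48 h lay above all 8 arrays at 0 and 3 h. The share of all transcripts with such a separation was not counted. In order of level the groups were control 48 h (31149 ± 1143, SD, n = 2), CP190 48 h (29924 ± 415), control 0 h (27510 ± 380.2), control 3 h (26840 ± 564), CP190 3 h (26342 ± 365) and CP190 0 h (25191 ± 638), and only control 3 h and CP190 3 h overlapped as neighbours. Whether RNA of the clustered H4 genes adds to the signal of this row was not tested.

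Over both arms the log2 change of His4r from 0 to 48 h was 0.21 ± 0.051 (16.0% higher, 95% interval 0.10 to 0.33, limma adjusted p = 0.00575), and 17.2% of all transcripts were called higher in that comparison (2865 transcripts, and 2290 after centring arrays). It stayed past the threshold under 6 other settings and without each of the 12 arrays, with adjusted p from 0.00336 with the replicate block to 0.0463 after centring each array on its median. Centring lowered the change over both arms to 0.14 and that in control cells to 0.095 (adjusted p = 0.34). The pairs within an arm and a replicate number gave 0.23 and 0.13 in control cells and 0.29 and 0.21 in CP190 cells, and 21% of all transcripts were higher at 48 h in all 4 such pairs. In CP190 cells alone the rise was 0.25 ± 0.073 (adjusted p = 0.025). This narrower comparison no longer passed once arrays were centred (0.0849), in a fit of its own 4 arrays (0.0851), or when any of those 4 was left out (0.0705 to 0.122). In control cells the change of 0.18 ± 0.073 did not pass (adjusted p = 0.0923). The difference between the arms was 0.07 (95% interval -0.16 to 0.30, adjusted p = 0.937), so no difference between them was shown.

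At 3 h of hormone no change of His4r was detected. Its log2 change was -0.04 ± 0.073 in control and 0.06 ± 0.073 in CP190 cells, and over both arms it was 0.01 with a 95% interval of -0.10 to 0.13, so a change as large as that at 48 h lay outside the interval. Over both arms 1.91% of all transcripts were called at 3 h.

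His4r was below control in 6 of 6 CP190 pairs, as were 13.6% of all transcripts, but the difference did not pass the test. The pairs gave -0.14 and -0.12 at 0 h, -0.03 and -0.02 at 3 h and -0.08 and -0.03 at 48 h. The mean over the 3 times was -0.07 ± 0.042 (95% interval -0.16 to 0.02, limma adjusted p = 0.294). Between replicates His4r was very even, with a residual SD of 0.032 on the log2 scale against a median of 0.101 over the 294 transcripts of similar level, of which 0 had a smaller one. In limma's moderated test this spread is drawn towards that of all transcripts, which gave the standard error of 0.073 for a difference of 2 groups.

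**Figure D2:**
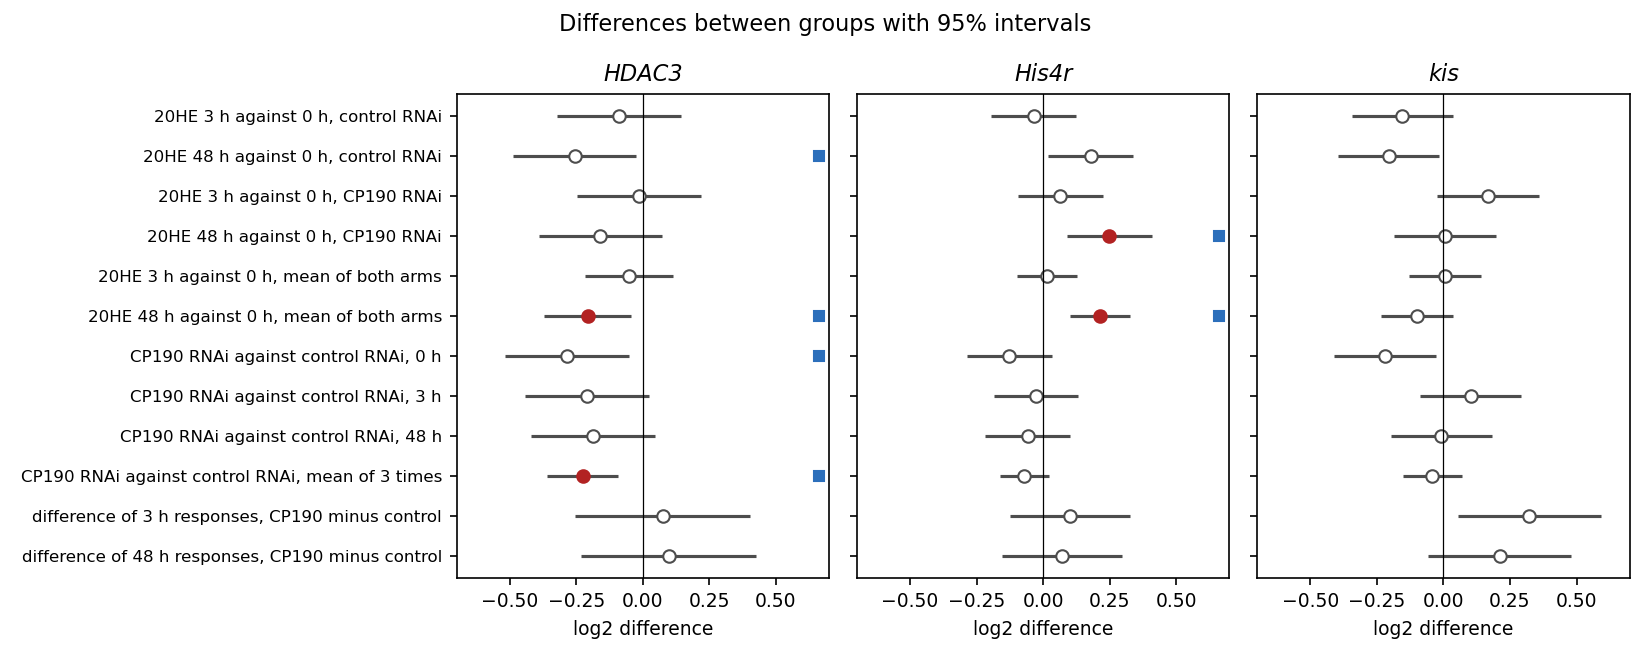
The log2 difference (x axis) of HDAC3, His4r and kis in 12 comparisons, with lines for unadjusted 95% intervals of the limma fit, filled red points past an adjusted p of 0.05, open points not past it, and blue squares where the fit with the replicate block was past it. HDAC3 has red points for 48 h over both arms and for CP190 RNAi over the 3 times, His4r for 48 h in CP190 cells and over both arms, and kis has none.

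No change of kis passed the test in any of the 12 comparisons, with or without the replicate block. At 0 h its intensity was 17986 and 18356 in control and 15735 and 15483 in CP190 RNAi cells. At 3 h it was 16645 and 16017 in control and 18812 and 16339 in CP190 RNAi cells, and at 48 h it was 15937 and 15567 in control and 14992 and 16384 in CP190 RNAi cells. Control cells without hormone were thus above every other group except CP190 3 h, whose replicate 1 was the highest of all 12 arrays. The group means were 18171 ± 262 (SD, n = 2) in control 0 h, 17576 ± 1749 in CP190 3 h, 16331 ± 444 in control 3 h, 15752 ± 262 in control 48 h, 15688 ± 984 in CP190 48 h and 15609 ± 179 in CP190 0 h. Among neighbours in this order, only control 3 h and control 48 h did not overlap.

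Averaged over the 3 times, the log2 difference of kis between CP190 and control cells was -0.04 ± 0.050, with a 95% interval of -0.15 to 0.07 (limma adjusted p = 0.653). It was -0.22 ± 0.087 at 0 h (adjusted p = 0.174), 0.10 ± 0.087 at 3 h (0.605) and -0.01 ± 0.087 at 48 h (0.984). The pairs had both signs, with 3 of 6 lower in CP190 cells. Between 0 and 48 h the log2 change of kis was -0.21 ± 0.087 for control RNAi (adjusted p = 0.104) and 0.01 ± 0.087 for CP190 RNAi (0.975). Centring arrays on their medians lowers every 48 h change of control cells by 0.084 and of CP190 cells by 0.066. Over both arms the 48 h change was -0.10 (95% interval -0.23 to 0.03, adjusted p = 0.235) before centring, an interval that holds a fall as large as that of HDAC3. On the centred scale kis was lower in control cells (-0.29, adjusted p = 0.023) and over both arms (-0.18, adjusted p = 0.0347), and its change in CP190 cells turned to -0.06 (0.625). The median change of all transcripts on that scale was itself -0.12 in control cells and -0.11 over both arms. Over both arms 7894 of 16637 transcripts were called on it.

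At 3 h of hormone the kis pairs had opposite signs in the arms. In control cells the change from 0 h was -0.11 and -0.20 for replicates 1 and 2, and in CP190 cells it was 0.26 and 0.08. The difference of the 3 h responses was 0.32 ± 0.12 on the log2 scale, with an unadjusted 95% interval of 0.05 to 0.59, and it did not pass after adjustment over all transcripts (limma adjusted p = 0.9999). That comparison called 0 transcripts, 0%, in the fit without the block, where 403 had an unadjusted p under 0.05, and 4, or 0.024%, with the block, kis not among them. Pairs that both went down in control and both up in CP190 cells, or the reverse, occurred in 10.6% of all transcripts. The difference was 0.22 without CP190 3 h replicate 1, the high array, and 0.42 without CP190 3 h replicate 2. At 48 h the difference of responses was 0.21 (95% interval -0.06 to 0.48, adjusted p = 0.66), in a comparison that called 2.18% of all transcripts.

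**Figure D3:**
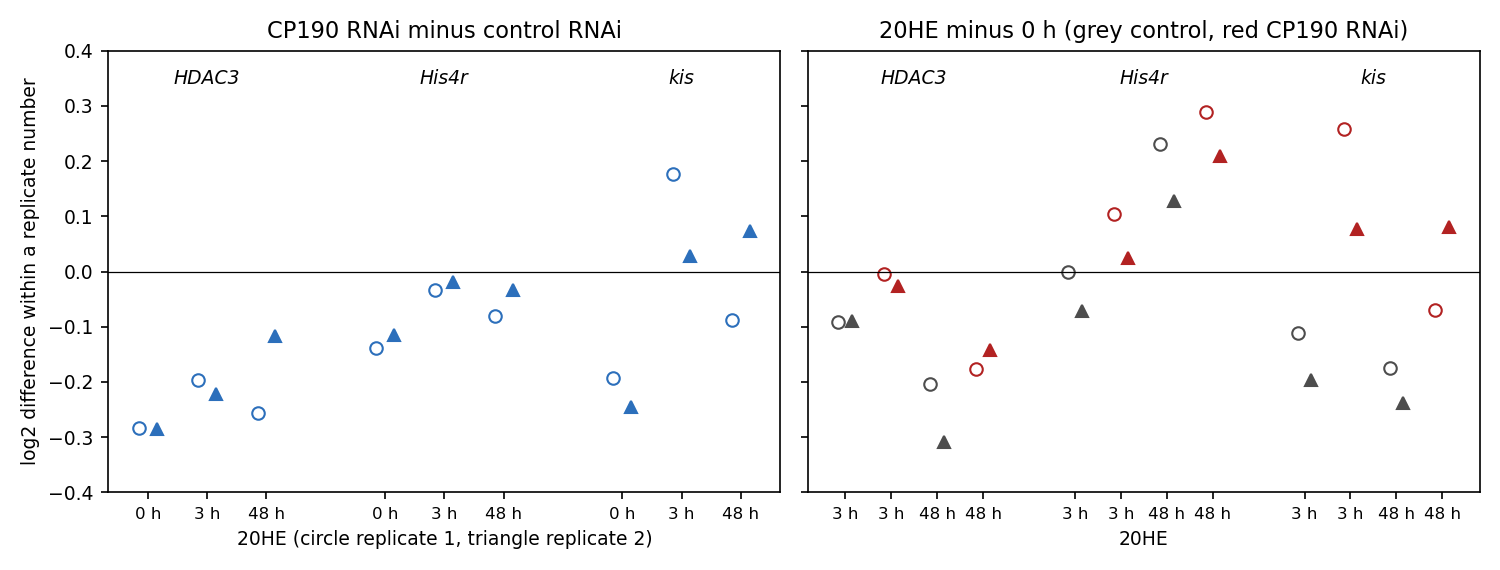
The log2 difference (y axis) between arrays of the same replicate number, circles for replicate 1 and triangles for replicate 2. On the left, CP190 RNAi minus control RNAi at 0, 3 and 48 h is negative in 6 of 6 pairs for HDAC3 (-0.28 to -0.12) and His4r (-0.14 to -0.02) and in 3 of 6 for kis. On the right, 48 h minus 0 h is negative for HDAC3 and positive for His4r in 4 of 4 pairs.

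Within an array, the 3 genes can be compared by how much each moved, a measure that no rescaling of whole arrays alters. From 0 to 48 h, His4r moved up against HDAC3 in 4 of 4 pairs, by a log2 difference of 0.35 to 0.47. It moved up against kis in 4 of 4 pairs as well, by 0.13 to 0.40, and kis moved up against HDAC3 in 4 of 4, by 0.03 to 0.22. From 0 to 3 h, His4r moved up against HDAC3 in 4 of 4 pairs, by 0.02 to 0.11. Over that time kis was split against each of them, 2 pairs and 2. After CP190 RNAi, HDAC3 moved down against both other genes in 6 of 6 pairs: His4r minus HDAC3 was 0.08 to 0.20 and kis minus HDAC3 was 0.04 to 0.37. Between His4r and kis the sign was split, 3 pairs and 3. These ratios describe unequal change, not which gene held still. They were not tested, and the same counts were not made for other transcripts, so how common such counts are was not measured.

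Changes of the 3 genes were also placed among transcripts of similar level, those whose mean log2 intensity over 12 arrays lay within 0.25 of the gene's. For HDAC3 these were 1109 transcripts. In the CP190 comparison over 3 times 27.1% of them were called, 129 higher and 172 lower, and 13.8% lay below the HDAC3 value. Their quartiles were -0.15 and 0.09, so HDAC3 lay outside the middle range on the low side. For the 48 h change over both arms 58.0% were called and the HDAC3 value lay inside the quartiles of -0.32 and 0.20. The late fall of HDAC3 was therefore of a size met by many transcripts of its level.

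Around His4r there were 294 such transcripts. At 48 h over both arms, 72 of them were called higher and 98 lower, their median change was -0.10, and 76.5% lay below the His4r change. The rise of His4r lay just above their upper quartile of 0.20. In size, whatever the direction, only 43.9% of them changed less than His4r, and 57.8% were called. A change of this size was therefore common at its level. In the CP190 comparison over 3 times its value lay inside their quartiles, -0.14 and 0.10.

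For kis, 521 transcripts had a similar level. The range of its 6 group means, 0.22 on the log2 scale, was narrow, and 8.45% of the 521 had a narrower one, against a median of 0.48. Its difference of 3 h responses was at the edge of theirs, with 99.4% below it, and 0 of the 521 were called there. By contrast its 48 h change over both arms, -0.10, was near their median of -0.08.

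**Figure D4:**
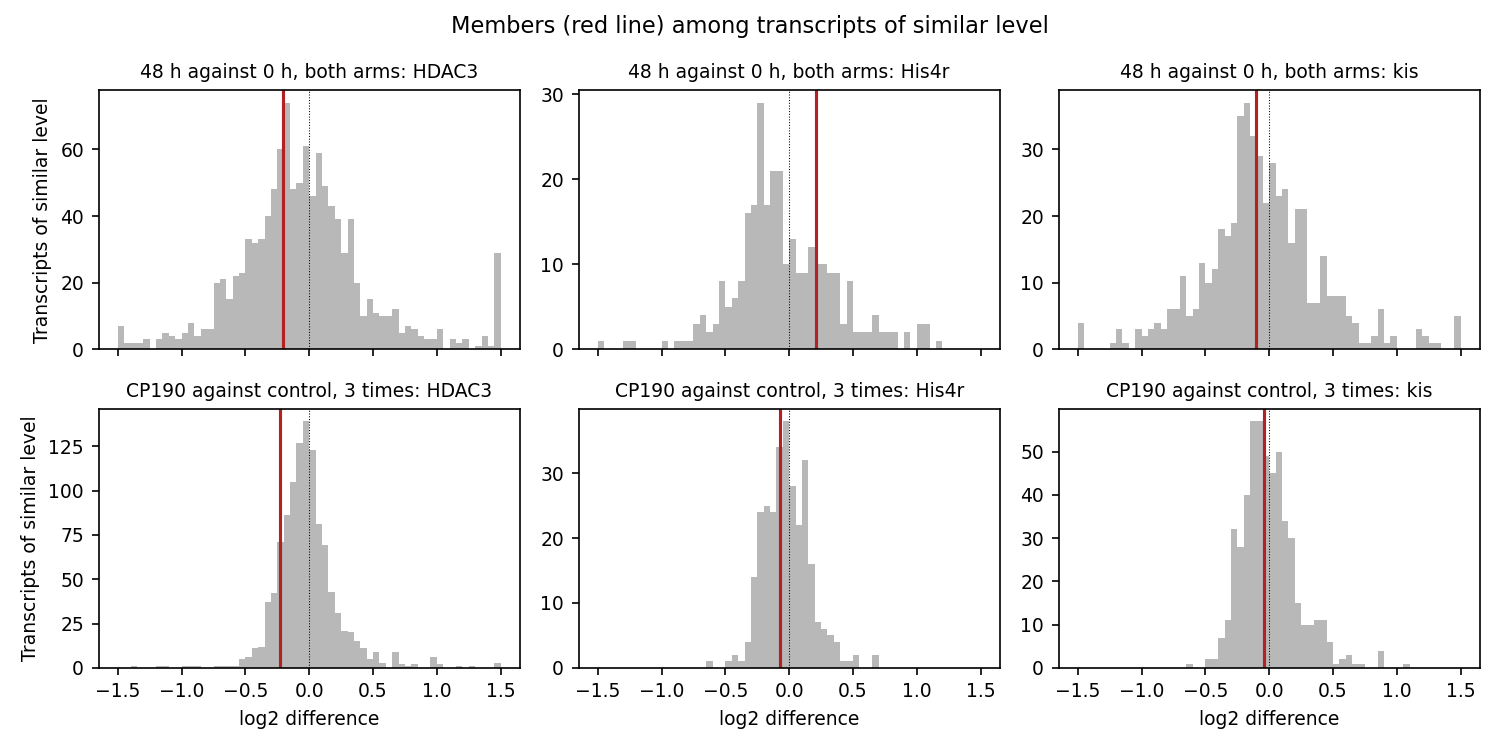
Histograms of the log2 difference (x axis, bins of 0.05, with values beyond 1.5 in the end bins) over transcripts within 0.25 of the mean log2 level of HDAC3, His4r or kis, with the gene itself as a red line. HDAC3 lies below the lower quartile for CP190 RNAi (13.8% below it), His4r above the upper quartile at 48 h (76.5% below it), and kis near the middle of both (46.6% and 48.2% below it). In size, whatever the direction, 43.9% of the transcripts around His4r changed less than it did at 48 h.

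Likeness of pattern was measured as Pearson's r of log2 intensity over the 12 arrays, which share their normalisation and the replicate offset, and is given as a description. Most like HDAC3 were FBtr0088564 (0.969, and 0.981 over the 6 group means) and FBtr0078143 (0.966 and 0.969), rows without a gene name here. The group means of both covered a wider range than those of HDAC3, 0.69 and 0.74 against 0.44. Among rows with a gene name the closest was Wdr24 (0.774), a gene of a complex that acts on the TORC1 growth pathway, at rank 1444 of all rows. Most like His4r were FBtr0088254 (0.975) and FBtr0071750 (0.968). The group means of both ranged more widely, over 1.30 and 2.27, against 0.31 for His4r. Its closest named row was mio (0.87), also of that TORC1-regulating complex, at rank 558. Only 16 rows had a gene name, so a closest named row is a choice among few. For kis the closest, FBtr0080821 (0.863) and FBtr0072358 (0.855), had mean log2 levels of 8.60 and 8.94, within 1.5-fold of the random control at 8.71, so their patterns are those of rows near background. Its closest named row was NaPi-III (0.555), a phosphate transporter gene, at rank 580. Among themselves, the 3 genes had r of 0.429 for HDAC3 and kis (0.616 over the 6 group means). It was -0.248 (-0.266) for HDAC3 and His4r, and -0.216 (-0.288) for His4r and kis.

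Other genes of the same pathways could hardly be read, because the table gives transcript identifiers and few are paired with a gene name. Of 9 genes listed for deacetylase complexes, 10 histone genes and 16 remodelling, trithorax or Polycomb genes, 1 each was paired, namely HDAC3, His4r and kis. Of 6 insulator genes and 5 genes of the 20HE receptor and its early targets, 0 were.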

How the data were processed

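Per the submitters' processing notes, the authors used RMA, which corrects background, equalises arrays and combines the probes for a transcript. The deposited table holds linear intensity values, 1 per transcript and array. The RMA version, annotation and build were not given in the sources used here, and no coordinates are printed. Probe values were not used here. Precision is limited by the number of arrays.

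The log2 of each intensity was taken with no pseudocount. Means of 6 groups over 12 arrays were fitted for 16637 transcripts by lmFit and eBayes of limma 3.58.1 (R 4.3.3), which left 6 residual degrees of freedom. P-values are two-sided, with Benjamini-Hochberg adjustment over all transcripts within a comparison and a threshold of 0.05. The random-sequence control stayed out of the tests. The fits were run on simulated data for 1 comparison, CP190 RNAi against control RNAi over the 3 times. There the mean estimate lay within 0.05 of the planted log2 change, which the run was set to require. That checks the coding of the contrast, and not how many calls are missed or false. The other comparisons were not simulated. Gene names were matched through synonyms that RefSeq lists for Release 6 of the genome; 44 rows were found there, 16 of them for 1 gene only.

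The labels number the replicates of every group 1 and 2. Differences between them correlated across transcripts by 0.147 to 0.608 in all 15 pairs of groups, so the numbers were taken to pair the samples, although no label says what a number stands for. The members, gene lists and tests were chosen with earlier results of these data known. By the rule for named genes, the text names the 3 members in every comparison, listed genes with a row of their own, and for each member the 2 rows and the named row with the highest correlation. Alternatives were the block, centring, quantile normalisation, a filter on low values, subtraction of the random control, fitting only the arrays compared and leaving out each array.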

Additional observations from a re-analysis of the deposited data

How the results depend on the processing

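With 2 arrays a group, the standard error of a difference of 2 groups was 0.11 for HDAC3, 0.073 for His4r and 0.087 for kis on the log2 scale. Under 6 other settings, 200 of 213 values of the 3 genes kept their direction and side of the threshold. The exceptions follow, and their cause was not tested. With the replicate block, HDAC3 passed at 48 h in control cells (-0.26) and for CP190 RNAi at 0 h (-0.28), and no other call of the 3 genes changed. Centring each array gave passes for HDAC3 (-0.34) and kis (-0.29) at 48 h in control cells and for kis over both arms (-0.18), took that of His4r at 48 h in CP190 cells (0.18), and turned kis there to -0.061. Quantile normalisation turned kis there to -0.024 and His4r at 3 h over both arms to -0.0070, neither past the threshold in any fit. Subtracting the random control took the HDAC3 calls at 48 h over both arms (-0.22) and for CP190 RNAi over the 3 times (-0.24). Fitting only the arrays compared, with fewer degrees of freedom, took those of His4r at 48 h in CP190 cells (0.25) and HDAC3 at 48 h over both arms (-0.21).

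Leaving out 1 array at a time, and for HDAC3 also with the block (added after seeing the data), assumes that the lone array of a group varies like the other groups. Over these fits the HDAC3 change ranged from -0.26 to -0.16 at 48 h over both arms, from -0.26 to -0.19 for CP190 RNAi over the 3 times, from -0.34 to -0.17 at 48 h in control cells and from -0.37 to -0.20 for CP190 RNAi at 0 h. His4r at 48 h in CP190 cells ranged from 0.22 to 0.27. Uncalled values near 0 changed sign in some fits: HDAC3 at 3 h in CP190 cells (-0.098 to 0.068) and in the differences of responses at 3 h (-0.0088 to 0.16) and 48 h (-0.0032 to 0.20), and kis at 3 h over both arms (-0.044 to 0.058), at 48 h in CP190 cells (-0.058 to 0.070) and for CP190 RNAi at 48 h (-0.071 to 0.057). A level window of 0.5 in place of 0.25 put 13.7% of transcripts below HDAC3 for CP190 RNAi over the 3 times, 77.2% below His4r at 48 h over both arms and 99% below kis in the difference of 3 h responses, against 13.8%, 76.5% and 99.4% with the narrower one. The calls at 48 h over both arms were 2865 higher and 3600 lower as deposited, and 2290 and 5604 after centring. Those for CP190 RNAi over the 3 times were 1666 and 1641, and 1403 and 2198 after centring.

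Counts over all transcripts moved by over 1.5 times as follows. At 3 h, 218 calls in control cells became 386 with the block, 131 with the random control subtracted, 89 with only the arrays compared and 135 to 210 without 1 array. In CP190 cells 117 became 229, 61 after subtraction and 52 to 134 without 1 array, and over both arms 317 became 591 with the block. At 48 h in CP190 cells 4410 became 2815 to 4663 without 1 array. For CP190 RNAi, 1221 calls at 0 h became 2614 with the block, 634 after subtraction, 553 with only the arrays compared and 537 to 1452 without 1 array. At 3 h 1033 became 2091, 634 after subtraction and 460 to 1115 without 1 array, and at 48 h 863 became 1654, 341 after subtraction and 483 to 927 without 1 array. For differences of responses, 0 at 3 h became 4 with the block, 16 after subtraction and 0 to 1 without 1 array, and 363 at 48 h became 725, 61 and 192 to 343.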
